A study of Schizosaccharomyces pombe with 4 samples.

Results

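The genes described here serve iron uptake in the fission yeast Schizosaccharomyces pombe. They are frp1, fio1 and fip1, which take up iron by reduction, the transporter genes str1, str2 and str3, the ferrichrome synthesis genes sib1 and sib2, and the regulator genes fep1 and php4. Each array row whose gene symbol or synonym was one of these names was taken; the rule uses no measured value, but the set was proposed with earlier results of these data known. All 10 were found, each with 1 spot and a value on every array, among the 4771 genes that had a value on every array.

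PolyA RNA was compared on 4 arrays with 2 channels each, and 2 arrays were made for each strain. In the mmi1-ts3 strain, JV565, which carries a temperature-sensitive allele of mmi1, RNA taken 30 min after a shift to 36 °C was set against RNA of the same strain growing exponentially at 25 °C. In the wild type, JV558, the same samples were set against each other. Both strains were grown in the rich liquid medium YES from a single colony on a plate. Mmi1 binds meiotic transcripts and sends them to destruction in vegetative cells. The other markers of the strains and their mating type are not given in the sources used here, and YES was the only medium, so no array holds cells starved of iron or given extra iron.

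A value below is the log2 ratio of an array, 36 °C over 25 °C, after subtraction of that array's median over the genes tested. An SD is that between the 2 arrays of a strain, and an SE or a 95% interval is that of the limma model. Where an array is left out, its strain is tested on 1 array with the spread of the other strain's 2 arrays, which limma draws toward that of all genes. The lone array is thus assumed to vary like those of the other strain, and such a value is no independent check of the call. The sources used here give neither the log base nor the direction of the ratio. The base was read from the range of the values. If it were a natural logarithm, which the range allows, all changes would be larger than printed. Positive values were taken to mean more RNA at 36 °C. That reading is likely because, of 16 heat shock genes, 14 lay above 0 on every array, as did 29.9% of all genes. In each strain 1 of the 16 had a mean below 0. The small heat shock protein gene hsp16 was at 7.21 ± 0.57 in mmi1-ts3 and 7.38 ± 0.50 in the wild type (SD, n = 2 each). The stress protein gene hsp9 was at 5.62 ± 0.21 and 6.33 ± 0.62. Each array compared a strain only with itself, so a difference between the strains is a difference of their responses and not of transcript levels. The titles of replicate 2 of both strains end in a code, and those of replicate 1 do not; they are called coded and uncoded arrays below, and no other grouping of the arrays by batch is labelled. Separate cultures for the replicates are not stated, and the p-values then cover only the spread between these arrays, which may be technical.

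Iron enters fission yeast by several routes. At the cell surface the ferric reductase Frp1 reduces ferric iron, and the multicopper oxidase Fio1 and the permease Fip1, which work as a pair, carry it across the membrane. Proteins of the Str family import iron bound to siderophores, small iron chelators, or to haem. The cell makes its own siderophore, ferrichrome, by the ornithine hydroxylase Sib2 and the peptide synthetase Sib1. Fep1 is a GATA-type repressor that shuts off uptake genes when iron is plentiful. Php4 joins the CCAAT-binding complex when iron is scarce and represses genes of proteins that use iron, and the php4 gene is itself under Fep1.

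After 30 min at 36 °C the genes of reductive uptake fell in both strains, and so did str1 and str3. These 5 were at least 2-fold lower on all 4 arrays, and 0 members were at least 2-fold higher on all 4. The synthesis gene sib1 moved the other way and was higher at 36 °C in both strains, with sib2 positive on all 4 arrays but short of the threshold. The regulator gene php4 also fell in both strains, with means of −1.10 in mmi1-ts3 and −0.67 in the wild type, and fep1 and str2 did not pass in either strain. By limma, with Benjamini-Hochberg adjustment over all genes tested and adjusted p under 0.05, 6 members were lower and 1 higher in mmi1-ts3, and 6 lower and 1 higher in the wild type. Over all genes the shares called lower were 19.6% in mmi1-ts3 and 14.5% in the wild type, and the shares called higher were 14.9% and 13.5%. The shares at least 2-fold lower and higher on all 4 arrays were 6.1% and 4.97%, and 29.9% of all genes were above 0 on all 4. The median over the 10 members was −1.61 in mmi1-ts3 and −1.26 in the wild type, beside medians over all genes of 0.005 and 0.031.

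**Figure D1:**
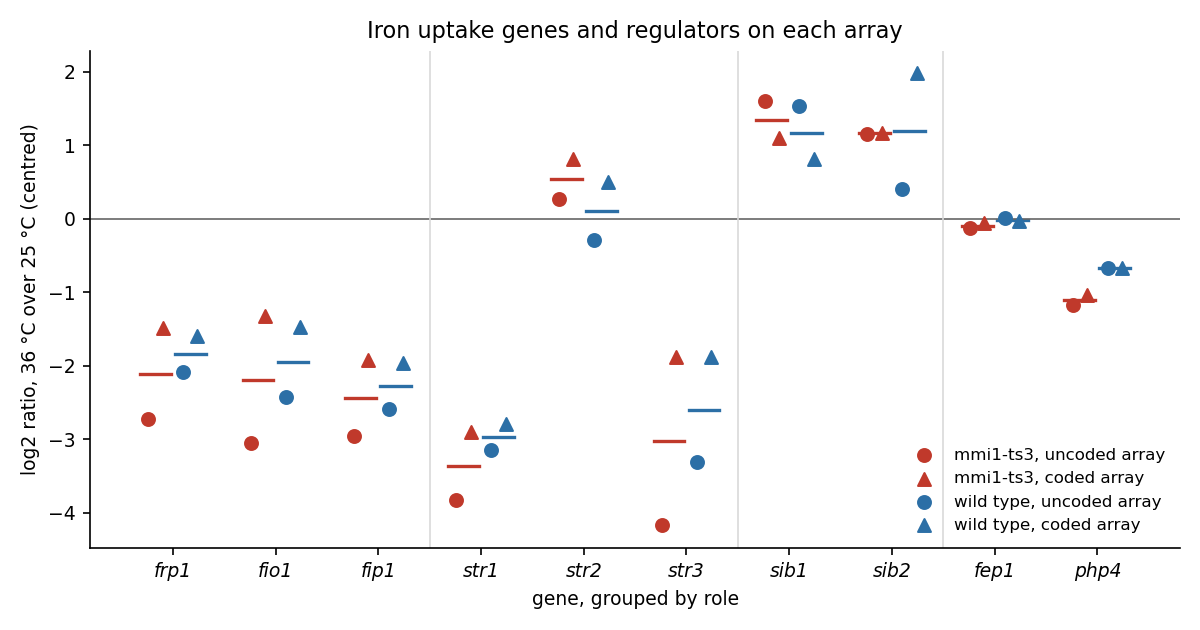
Log2 ratio of 36 °C over 25 °C for each of the 10 genes on each array, with bars at the mean of the 2 arrays of a strain. The genes frp1, fio1, fip1, str1 and str3 lie below −1 on every array, sib1 and sib2 lie above 0, and fep1 lies near 0.

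Among the reductive uptake genes, frp1, the ferric reductase, had log2 ratios of −2.73 and −1.49 on the mmi1-ts3 arrays (replicate 1 before replicate 2, here and below), against −2.09 and −1.60 on the wild-type arrays. It was 4.32-fold lower at 36 °C in mmi1-ts3 (mean −2.11 ± 0.88 SD, limma adjusted p = 0.00655) and 3.59-fold lower in the wild type (−1.84 ± 0.34, adjusted p = 0.0128). The strains overlapped, with the lowest and the highest value both in mmi1-ts3. Without wild-type replicate 1, the wild-type call of frp1 was lost (−1.60, adjusted p = 0.0641).

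The oxidase gene fio1 had −3.06 and −1.32 on the mmi1-ts3 arrays, against −2.42 and −1.47 on the wild-type arrays. Its mean was −2.19 ± 1.23 SD in mmi1-ts3, a 4.55-fold fall (limma adjusted p = 0.0161), and −1.95 ± 0.67 in the wild type, a 3.86-fold fall (adjusted p = 0.0281). The values of the strains overlapped. Without wild-type replicate 1, the wild-type call of fio1 was lost (−1.47, adjusted p = 0.136).

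The permease gene fip1, partner of fio1, had −2.96 and −1.93 on the mmi1-ts3 arrays, against −2.58 and −1.96 on the wild-type arrays. It was 5.43-fold lower in mmi1-ts3 (−2.44 ± 0.73 SD, limma adjusted p = 0.00362) and 4.83-fold lower in the wild type (−2.27 ± 0.44, adjusted p = 0.00522). Here too the mmi1-ts3 arrays lay outside the wild-type arrays on both sides. With 1 array left out, its adjusted p reached at most 0.00314 in mmi1-ts3 and 0.03 in the wild type, with the spread of the strain left with 1 array taken from the other strain.

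Of the Str transporters, str1, which imports ferrichrome, had −3.82 and −2.89 on the mmi1-ts3 arrays, against −3.14 and −2.80 on the wild-type arrays. All 4 values were among the deepest falls of their array. The transcript was 10.2-fold lower at 36 °C in mmi1-ts3 (−3.36 ± 0.65 SD, limma adjusted p = 0.00115) and 7.82-fold lower in the wild type (−2.97 ± 0.24, adjusted p = 0.0018). By mean response str1 ranked 3 from the bottom of 4771 genes in mmi1-ts3 and 8 from the bottom in the wild type. With 1 array left out, its adjusted p reached at most 0.00136 in mmi1-ts3 and 0.0108 in the wild type, again with the other strain's spread for a strain left with 1 array.

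The gene str3, whose product imports haem, had −4.17 and −1.88 on the mmi1-ts3 arrays, against −3.32 and −1.88 on the wild-type arrays. Its low values were those of replicate 1 in both strains, and the replicate 2 values of the strains nearly coincided. The mean was −3.02 ± 1.62 SD in mmi1-ts3, an 8.12-fold fall (limma adjusted p = 0.0142), and −2.60 ± 1.02 in the wild type, a 6.05-fold fall (adjusted p = 0.0277). Without wild-type replicate 1, the wild-type call of str3 was lost (−1.88, adjusted p = 0.135).

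The third transporter gene, str2, codes for another importer of siderophore-bound iron. Its values were 0.27 and 0.81 on the mmi1-ts3 arrays, against −0.29 and 0.50 on the wild-type arrays. The mean was 0.54 ± 0.38 SD in mmi1-ts3 (limma adjusted p = 0.16) and 0.11 ± 0.55 in the wild type (adjusted p = 0.786), with 95% intervals of −0.10 to 1.18 and −0.53 to 0.75. Of the 3 transporter genes, str2 was the only one whose interval included 0 in either strain. In a model with a term for the array set, str2 passed as higher in mmi1-ts3 (0.54, adjusted p = 0.037).

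**Figure D2:**
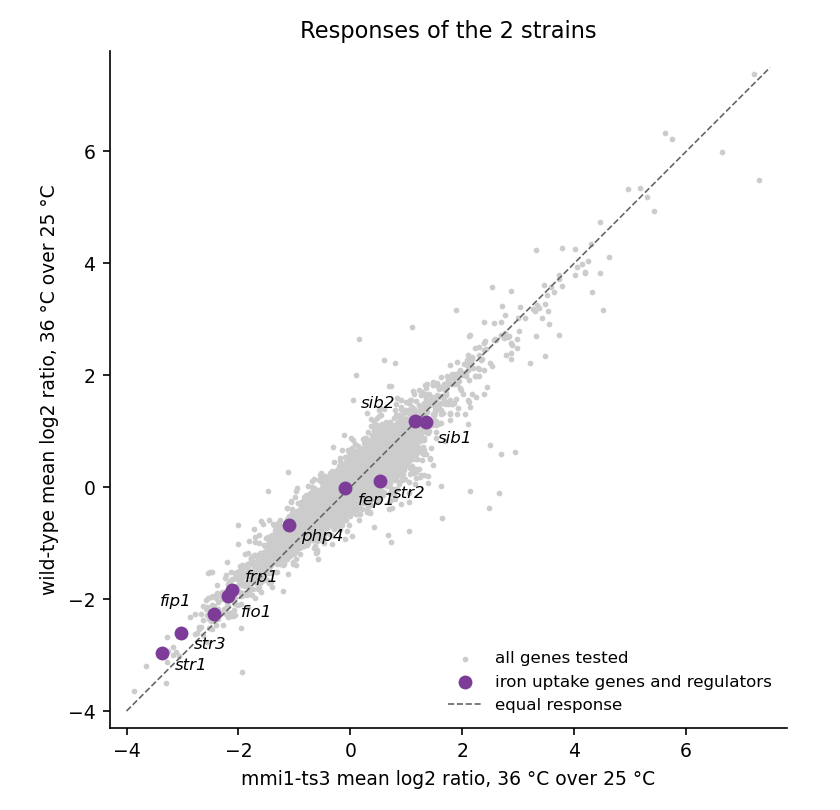
Mean log2 ratio of 36 °C over 25 °C in mmi1-ts3 (horizontal) and in the wild type (vertical) for all 4771 genes tested, with the 10 iron genes in purple and the line of equal response dashed. The genes str1 and str3 lie at the low end of the cloud, sib1 and sib2 above 1 in both strains, and all 10 lie close to the line.

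The ferrichrome synthesis genes were on the other side of 0. For sib1, the peptide synthetase that assembles ferrichrome, the values were 1.59 and 1.10 on the mmi1-ts3 arrays, against 1.53 and 0.81 on the wild-type arrays. It was 2.54-fold higher at 36 °C in mmi1-ts3 (1.35 ± 0.35 SD, limma adjusted p = 0.0113) and 2.25-fold higher in the wild type (1.17 ± 0.51, adjusted p = 0.0215). The strains overlapped. The calls of sib1 were lost without mmi1-ts3 replicate 1 (mmi1-ts3 1.10, adjusted p = 0.058) and without wild-type replicate 1 (wild type 0.81, adjusted p = 0.111).

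For sib2, the hydroxylase that acts before Sib1, the values were 1.15 and 1.17 on the mmi1-ts3 arrays, against 0.41 and 1.98 on the wild-type arrays. The mmi1-ts3 arrays fell between the widely spaced wild-type ones. The means were 1.16 ± 0.02 SD in mmi1-ts3 (limma adjusted p = 0.0599) and 1.19 ± 1.11 in the wild type (adjusted p = 0.063), and neither passed. On wild-type replicate 2, the 20 spots nearest to sib2 in the order of the value table had a median of 1.01, against −0.27 on wild-type replicate 1 and 0.43 and 0.33 on the mmi1-ts3 arrays. Such medians of nearby spots lay between −0.50 and 0.52 for the other 9 genes. The part of the spot's position in the sib2 value was not tested. Left-out arrays moved sib2 past the threshold: the mmi1-ts3 mean of 1.16 had an adjusted p of 0.0066 without wild-type replicate 1 and 0.00616 without wild-type replicate 2. Without wild-type replicate 1 the wild-type value that passed is the single array at 1.98. Its spread was taken from the mmi1-ts3 arrays, whose SD was 0.02, and was drawn by limma toward the spread of all genes. The wild-type mean passed at 1.19 without mmi1-ts3 replicate 1 (adjusted p = 0.0159) or 2 (adjusted p = 0.0306). In a model with a term for the array set it passed in both strains (adjusted p = 0.0325 in mmi1-ts3 and 0.0342 in the wild type).

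Of the regulators, fep1, the GATA-type repressor, had −0.13 and −0.07 on the mmi1-ts3 arrays, against 0.005 and −0.03 on the wild-type arrays. Its means of −0.10 ± 0.04 SD in mmi1-ts3 (limma adjusted p = 0.676) and −0.01 ± 0.02 in the wild type (adjusted p = 0.962) did not pass. The 95% intervals ran from −0.50 to 0.31 and from −0.41 to 0.39, so a change of 2-fold in its transcript lay outside them in both strains. The arrays measured the fep1 transcript, and the activity of the protein was not measured.

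For php4, the values were −1.17 and −1.03 on the mmi1-ts3 arrays, against −0.67 and −0.67 on the wild-type arrays. Both mmi1-ts3 values lay below both wild-type values. The 20 spots nearest to php4 had medians of −0.50 and −0.49 on the mmi1-ts3 arrays, against −0.37 and −0.09 on the wild-type arrays. The part of the spot's position in the php4 values was not tested. The transcript was 2.15-fold lower at 36 °C in mmi1-ts3 (−1.10 ± 0.10 SD, limma adjusted p = 0.00593) and 1.59-fold lower in the wild type (−0.67 ± 0.002, adjusted p = 0.033). Without mmi1-ts3 replicate 1 the mmi1-ts3 call was lost (−1.03, adjusted p = 0.0541). The wild-type call of php4 was lost whichever array was left out, with values near −0.67 and adjusted p from 0.0585 to 0.136.

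In the order of mean response the members ran from str1 through str3, fip1, fio1, frp1, php4 and fep1 to str2, sib2 and sib1 in mmi1-ts3. The order in the wild type was the same up to str2, with sib1 before sib2 at the top. The 95% intervals of neighbouring genes in the order overlapped from str1 to frp1 in both strains. In mmi1-ts3 the interval of frp1, −2.92 to −1.30, overlapped that of php4, −1.51 to −0.69, and in the wild type they overlapped at their ends, at −2.65 to −1.03 and −1.08 to −0.26. The interval of str1, −4.02 to −2.70 in mmi1-ts3 and −3.63 to −2.31 in the wild type, did not overlap that of php4.

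The strains were then compared, which is the question the series record names for mmi1. With limma, 0 of the 10 members passed for mmi1-ts3 minus wild type, as did 0% of all genes, at an adjusted p of 0.998 for each member. At an unadjusted p under 0.05 there were 0 members, and 1.89% of all genes; the smallest unadjusted p of a member was 0.115. The largest differences were those of str2 (0.43 ± 0.36 SE), php4 (−0.43 ± 0.23), str3 (−0.43 ± 0.84) and str1 (−0.39 ± 0.37). A 2-fold difference in one or both directions lay within the 95% interval of 9 of the 10 members. The intervals were −2.53 to 1.68 for str3, −1.83 to 1.35 for fio1, −1.41 to 0.88 for frp1, −1.34 to 1.27 for sib2, −1.32 to 0.54 for str1, −1.23 to 0.90 for fip1 and −1.01 to 0.14 for php4. They were −0.47 to 1.34 for str2 and −0.69 to 1.05 for sib1. The exception was fep1, at −0.65 to 0.49.

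Both mmi1-ts3 arrays lay below both wild-type arrays for 2 members, php4 and fep1, and above them for 0. Over all genes the shares were 20.4% below and 9.37% above. The median difference over the members was −0.20, beside −0.07 over all genes. Without mmi1-ts3 replicate 1 it was 0.21 and without wild-type replicate 2 it was 0.06, and without the other array of each strain it was −0.59 and −0.49. The difference of str1 took the value 0.07 without mmi1-ts3 replicate 1, and that of str3 0.72. The transcript of mmi1 itself had 0.24 and 0.66 on the mmi1-ts3 arrays, against −0.24 and 1.01 on the wild-type arrays. Those values of mmi1 overlapped, and they do not check the mutation, since the allele is temperature-sensitive and its level at 25 °C was not compared between strains.

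For the 5 uptake genes that fell, the mean difference between the array sets was larger in size than that between the strains. On the uncoded arrays frp1, fio1, fip1, str1 and str3 lay between −4.17 and −2.09, and on the coded arrays between −2.89 and −1.32. In each strain, each of the 5 was lower on the uncoded array than on the coded one. The gap, coded minus uncoded, was 2.29 for str3 in mmi1-ts3 and 1.44 in the wild type. It was 1.74 and 0.95 for fio1, 1.24 and 0.48 for frp1, 1.03 and 0.62 for fip1, and 0.93 and 0.34 for str1, with mmi1-ts3 first. The wild-type gaps of frp1 and str1 were smaller in size than their strain differences on the uncoded arrays, −0.64 and −0.68. Over both strains str3 had the gap that ranked 18 from the top of 4771 genes and fio1 the one that ranked 52. The gene sib1 differed the other way, by −0.50 in mmi1-ts3 and −0.73 in the wild type, so both its rise and the falls of the 5 uptake genes were larger on the uncoded arrays. The gaps of sib2 were 0.02 and 1.57, so its value was higher on the coded array in each strain, barely so in mmi1-ts3. Those of str2 were 0.53 and 0.78. For php4 the gaps were 0.14 and 0.003, and for fep1 0.06 and −0.03.

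**Figure D3:**
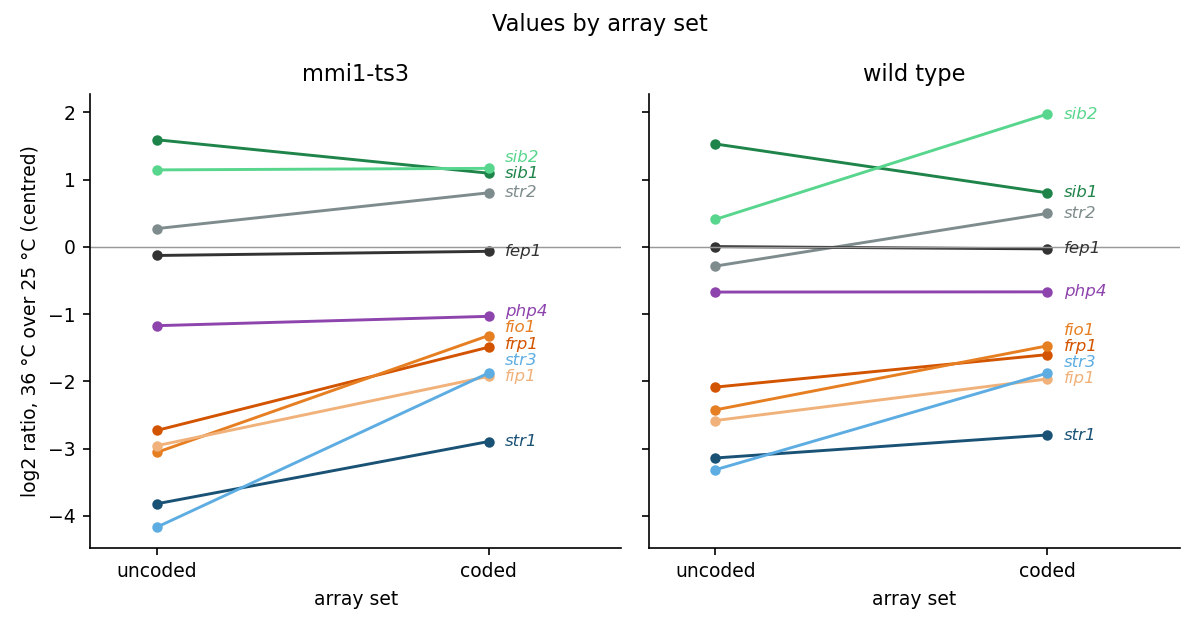
Log2 ratio of 36 °C over 25 °C for each of the 10 genes on the uncoded and the coded array, joined by a line, in mmi1-ts3 (left) and in the wild type (right). The lines of str3 and fio1 climb most among the genes below 0, sib1 falls in both panels, and php4 and fep1 are nearly level.

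The array set was tested as a term in the model for all genes, a test chosen after the data were seen, with limma and 1 residual degree of freedom. The difference, coded minus uncoded, was 1.87 ± 0.28 SE for str3 (adjusted p = 0.249), 1.35 ± 0.27 for fio1 (adjusted p = 0.253), 0.86 ± 0.26 for frp1 (adjusted p = 0.267) and 0.82 ± 0.21 for fip1 (adjusted p = 0.262). For str1 it was 0.63 ± 0.24 (adjusted p = 0.304) and for sib1 −0.61 ± 0.20 (adjusted p = 0.282). It was 0.79 ± 0.41 for sib2 (adjusted p = 0.399) and 0.66 ± 0.20 for str2 (adjusted p = 0.268). None of the 4771 genes passed, 0% in either direction, and the smallest adjusted p was 0.222. At an unadjusted p under 0.05 stood 769 genes (16.1%) and 7 of the 10 members. The absolute difference between the sets had a median of 0.73 over the members and 0.27 over all genes. The sources used here do not say what differed between the array sets besides the code.

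Within the uncoded set, mmi1-ts3 minus wild type was −0.85 for str3, −0.68 for str1, −0.64 for frp1, −0.63 for fio1, −0.37 for fip1 and −0.50 for php4. Within the coded set it was 0.003 for str3, −0.10 for str1, 0.11 for frp1, 0.15 for fio1, 0.04 for fip1 and −0.36 for php4. Each of these values rests on 1 array per strain. The differences of php4 and str1 were thus negative in both sets, as was that of fep1 (−0.13 and −0.04). Those of the reductive uptake genes had opposite signs in the sets. The difference of sib1 was 0.06 (uncoded) and 0.29 (coded), and that of str2 0.56 and 0.31. For sib2 it was 0.74 in the uncoded set and −0.81 in the coded set.

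Several members are next to one another on the chromosome. By the order of protein-coding genes in the RefSeq annotation, fio1 and fip1 are neighbours, both lower at 36 °C, and sib1 and sib2 are neighbours, both with positive means. The gene next to str3 is shu1, which codes for a cell surface protein of haem uptake. It had 0.86 and 1.15 on the mmi1-ts3 arrays, against 0.30 and 0.97 on the wild-type arrays, on the other side of 0 from str3. It passed in mmi1-ts3 (limma adjusted p = 0.0205) and not in the wild type (mean 0.63 ± 0.47 SD, adjusted p = 0.0867). In a model with a term for the array set shu1 passed in the wild type too (adjusted p = 0.0317), and the mmi1-ts3 call was lost without mmi1-ts3 replicate 2 (0.86, adjusted p = 0.14).

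The gene next to frp1 is pcl1, which codes for a carrier that stores iron in the vacuole. Its values were 0.51 and −0.40 on the mmi1-ts3 arrays, against 0.26 and −0.15 on the wild-type arrays, and it did not pass. On the other side of frp1, the hexose transporter gene ght4 was higher in mmi1-ts3 (1.24 ± 0.20 SD, limma adjusted p = 0.0228), with 0.83 ± 0.76 in the wild type (adjusted p = 0.0827). The wild-type value of ght4 passed without mmi1-ts3 replicate 1 (adjusted p = 0.0466) or wild-type replicate 2 (1.37, adjusted p = 0.0282), and the mmi1-ts3 call was lost without mmi1-ts3 replicate 2 (1.10, adjusted p = 0.0993). Of the 16 neighbours that are no member, 14 were measured on all arrays, and their means lay between −0.61 and 1.24. In mmi1-ts3, 3 of the 14 were higher and 1 lower, beside 14.9% higher and 19.6% lower over all genes. In the wild type 1 was higher and 0 lower, beside 13.5% and 14.5% over all genes. The lowest mean of the 14 was closer to 0 than the means of frp1, fio1, fip1, str1 and str3 in either strain.

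The genes whose values were nearest to those of str1, by Euclidean distance over the 4 arrays, were ani1 (distance 0.44), SPOM_SPBC887.17 (0.51), adg1 (0.66), gln1, the glutamine synthetase (0.85), and SPOM_SPCC320.08 (0.96). None of them is a member. The measure takes only 4 values per gene and says nothing of shared function.

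Other genes of iron handling did not move as a block. Of 7 measured regulators besides fep1 and php4, 2 fell in mmi1-ts3 and 1 in the wild type, and 0 rose. Their median was −0.02 in mmi1-ts3 and 0.02 in the wild type. Beside this list and those below, the shares over all genes were 19.6% lower and 14.9% higher in mmi1-ts3. In the wild type they were 14.5% and 13.5%. The glutaredoxin gene grx4, whose product binds Fep1 and Php4, had −1.10 and −0.81 on the mmi1-ts3 arrays, against −0.60 and −0.94 on the wild-type arrays. It passed in both strains (limma adjusted p = 0.0138 in mmi1-ts3 and 0.0322 in the wild type), and each call of grx4 was lost without either array of its strain (adjusted p = 0.129 and 0.0524 in mmi1-ts3 and 0.0623 and 0.185 in the wild type). The gene php2, for a core subunit of the CCAAT-binding complex that Php4 joins, had 0.35 and 2.80 on the mmi1-ts3 arrays, against 0.19 and 2.76 on the wild-type arrays. It was high on the coded arrays of both strains and did not pass (adjusted p = 0.168 in mmi1-ts3 and 0.21 in the wild type). In a model with a term for the array set php2 passed in both strains (adjusted p = 0.00243 in mmi1-ts3 and 0.00336 in the wild type). It also passed in mmi1-ts3 on replicate 2 alone (2.80, adjusted p = 0.00744), and in the wild type without mmi1-ts3 replicate 1 or 2 (adjusted p = 0.0225 and 0.0469).

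Of 8 measured genes of other iron, haem and vacuolar transport, 2 rose and 1 fell in mmi1-ts3, and 1 rose and 1 fell in the wild type. The medians were −0.15 and −0.06. The gene that fell was mrs3, a mitochondrial iron carrier by its budding yeast counterpart, at −1.66 ± 0.26 SD in mmi1-ts3 (limma adjusted p = 0.0026) and −1.60 ± 0.15 in the wild type (adjusted p = 0.00367). The gene hmt1 was higher, at 0.94 ± 0.04 in mmi1-ts3 (adjusted p = 0.00957) and 0.93 ± 0.11 in the wild type (adjusted p = 0.0131). Its product is known for moving phytochelatins into the vacuole rather than for iron. The mmi1-ts3 call of hmt1 was lost without mmi1-ts3 replicate 1 or 2 (adjusted p = 0.0835 and 0.0776) and the wild-type call without wild-type replicate 2 (adjusted p = 0.0819).

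Of 25 measured genes listed as iron-using, a class that includes genes repressed by Php4 when iron is scarce, 4 rose and 5 fell in mmi1-ts3, and 5 rose and 2 fell in the wild type. Over all genes 14.9% rose and 19.6% fell in mmi1-ts3, and 13.5% rose and 14.5% fell in the wild type. The medians of the list, 0.07 and 0.15, lay near those of all genes. The catalase gene ctt1, whose product holds haem, rose most, by 5.42 ± 0.40 SD in mmi1-ts3 (limma adjusted p = 0.000568) and 4.94 ± 0.22 in the wild type (adjusted p = 0.000478). The gene erg1 also rose, by 1.42 ± 0.23 in mmi1-ts3 (adjusted p = 0.0036) and 1.50 ± 0.01 in the wild type (adjusted p = 0.00371); squalene epoxidase, its product, is a flavin enzyme and was listed with its sterol pathway.

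At the low end of the iron-using list, hem1, for the first enzyme of haem synthesis, was at −1.42 ± 0.13 SD in mmi1-ts3 (limma adjusted p = 0.00313) and −1.40 ± 0.07 in the wild type (adjusted p = 0.00391). It was listed with the haem pathway, and its enzyme is not itself an iron protein. The glutamate synthase gene glt1, for an enzyme with iron-sulphur clusters, was at −1.24 ± 0.01 (adjusted p = 0.00404) and −1.15 ± 0.02 (adjusted p = 0.00613) in the same order of strains. The succinate dehydrogenase genes sdh1, sdh2, sdh3 and sdh4 (now named tim18 in RefSeq) did not pass in either strain. In a model with a term for the array set, sdh2 passed as higher in both (0.47, adjusted p = 0.0499 in mmi1-ts3 and 0.53, adjusted p = 0.0416 in the wild type).

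Fio1 needs copper, and copper genes were therefore set beside the iron genes. Of 10 measured, 2 rose and 0 fell in mmi1-ts3, and 1 rose and 0 fell in the wild type, with medians of 0.22 and 0.17. The superoxide dismutase gene sod1 was at 0.92 ± 0.34 SD in mmi1-ts3 (limma adjusted p = 0.0435) and 0.90 ± 0.60 in the wild type (adjusted p = 0.053). The call of sod1 was lost without either mmi1-ts3 array (adjusted p = 0.247 and 0.0665). The gene cuf2 of the copper list was at 0.83 ± 0.25 in mmi1-ts3 and 0.87 ± 0.81 in the wild type and did not pass (adjusted p = 0.0864 and 0.084). In a model with a term for the array set, cuf2 passed in both strains (adjusted p = 0.0254 in each), and so did sod1 in the wild type (adjusted p = 0.0129). Left-out arrays moved cuf2 past the threshold without wild-type replicate 1 or 2 in mmi1-ts3 (adjusted p = 0.0232 and 0.0225), and without mmi1-ts3 replicate 1 or wild-type replicate 2 in the wild type (adjusted p = 0.0408 and 0.0268). They did so for sod1 in the wild type without mmi1-ts3 replicate 1 or 2 or wild-type replicate 2 (adjusted p = 0.0248, 0.0365 and 0.0384), as did leaving out the centring (adjusted p = 0.0386).

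Of 8 measured zinc genes, 1 rose and 3 fell in mmi1-ts3, and 2 rose and 2 fell in the wild type, with medians of −0.33 and −0.11. The metallothionein gene zym1 was at 3.32 ± 1.36 SD in mmi1-ts3 (limma adjusted p = 0.00535) and 4.24 ± 0.59 in the wild type (adjusted p = 0.0033). The zinc uptake gene zrt1 was at −0.96 ± 0.31 in mmi1-ts3 (adjusted p = 0.014) and −0.93 ± 0.09 in the wild type (adjusted p = 0.0194), a smaller mean fall than those of the 5 iron uptake genes. The calls of zrt1 were lost without mmi1-ts3 replicate 1 (adjusted p = 0.161), and without wild-type replicate 1 or 2 (adjusted p = 0.0643 and 0.102).

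**Figure D4:**
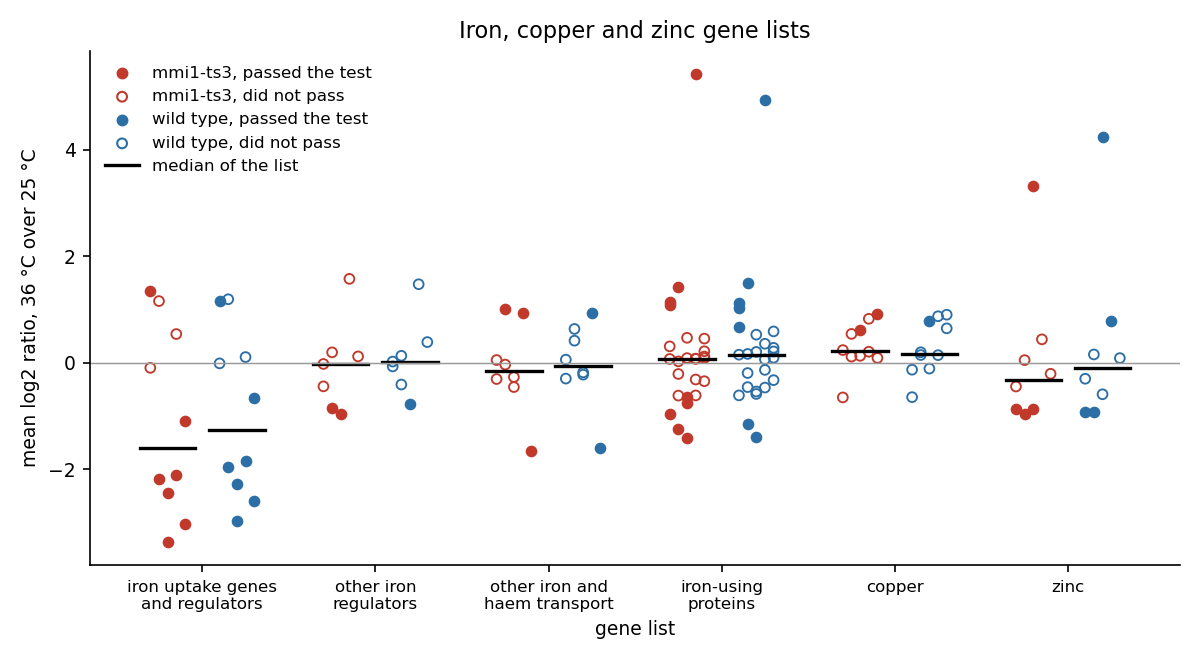
Mean log2 ratio of 36 °C over 25 °C of each measured gene of 6 lists, in mmi1-ts3 (red) and in the wild type (blue), filled where the gene passed the test; black bars are medians. The medians of the iron uptake genes and regulators, −1.61 and −1.26, lie below those of the other 5 lists, which run from −0.33 to 0.22.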

How the data were processed

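Per the labels, each array compared 2 channels, and the deposited table holds 1 value per spot and array, taken here as a log2 ratio. The sources used here do not state the authors' log base, background correction, normalization or spot filters. The maximum of 7.81 was too high for a base-10 log of a 16-bit signal, whose range is 4.82. The labels' protocols name 3 to 6 µg of polyA RNA per labelling. They disagree on the dye of the 36 °C channel (Cy5 in the label field, Cy3 in the protocol) and mention no swapped dyes, so any shared dye bias is part of both responses but not of their difference.

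Of 5188 spots, 4933 carried 1 gene, 1 several and 254 none. Names came from the platform annotation and the RefSeq table of ASM294v3, which matched 4930 spots by gene ID and was used only for names and gene order. Missing spots numbered 4 and 56 on the mmi1-ts3 arrays and 5 and 67 on the wild-type arrays. Spots of 1 gene were averaged, and 4771 of 4880 genes had a value on all arrays and were tested. Medians subtracted were −0.002 and 0.10 on the mmi1-ts3 arrays and −0.10 and 0.07 on the wild-type arrays. The small number of arrays limits the precision.

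A limma 3.58.1 model (R 4.3.3, lmFit and eBayes) with a mean per strain was fitted to all 4 arrays, with 2 residual and 3.56 prior degrees of freedom. The code was run on simulated data with independent noise on each array. Those data held no array-set effect, so the run does not check the model against such an effect. An exact permutation test of 2 against 2 arrays cannot give a p below 0.333, so none was run. The members and the lists of other genes were chosen with earlier results of these data known. The named genes are all 10 members, 2 to 5 of each list with the largest absolute mean over the arrays, genes beside a member, the 5 nearest to str1, and mmi1; sdh1 to sdh4, ctr5 and zip3 were added with their values known. Of 80 genes on the other lists, 6 had no current name or no value on every array. The alternatives covered centring, scaling, missing values, the variance model, thresholds, the log base, left-out arrays and the array set as a block. No sequences were used here.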

Additional observations from a re-analysis of the deposited data

Results flagged for a closer look

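The rules for a closer look flagged none of the 10 iron uptake genes and regulators. They flagged 2 genes of the comparison lists because both mmi1-ts3 arrays lay on one side of 0 and both wild-type arrays on the other. The copper transporter gene ctr5 had 0.24 and 0.23 on the mmi1-ts3 arrays, against −0.26 and −0.005 on the wild-type arrays, a difference of 0.37 ± 0.24 SE. The zinc transporter gene zip3 had −0.03 and −0.38 on the mmi1-ts3 arrays, against 0.12 and 0.05 on the wild-type arrays, a difference of −0.29 ± 0.25. Neither difference passed over all genes (limma adjusted p = 0.998 for ctr5 and for zip3).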

How the results depend on the processing

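The count of 6 members lower in mmi1-ts3 ran from 5 to 6 with 1 array left out, and that in the wild type from 2 to 5. At an adjusted p under 0.01 it was 4 in mmi1-ts3 and 2 in the wild type. The counts over all genes moved as well. In mmi1-ts3, the genes called lower went from 933 to 472 at an adjusted p under 0.01. Those called higher in mmi1-ts3 went from 711 to 327 at that threshold, and to 1011 with the array set as a replicate block. The 1 member higher became 0 in both strains at an adjusted p under 0.01, ran from 0 to 2 in mmi1-ts3 and from 1 to 2 in the wild type with 1 array left out, and became 3 in mmi1-ts3 and 2 in the wild type with the array set as a replicate block. The median over the members was −2.32 in mmi1-ts3 and −1.81 in the wild type with natural logs. With 1 array left out the median strain difference ran from −0.59 to 0.21.

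No strain difference of a member passed under any of these settings, and several changed sign. Leaving out single arrays gave −1.11 to 0.63 for fio1, −0.68 to 0.35 for fip1, −0.89 to 0.35 for frp1, −0.85 to 0.074 for str1, −1.57 to 0.72 for str3, −0.19 to 0.54 for sib1 and −0.82 to 0.75 for sib2. The positive extremes of fio1, fip1, frp1, str1 and str3 came without mmi1-ts3 replicate 1. The difference of fip1 was 0.0302 with scaled arrays and 0.0605 with quantile normalization, and that of sib2 was 0.031 without centring. Wild-type values ran from −0.029 to 0.0035 for fep1 and from −0.29 to 0.498 for str2. The cause was not tested. Across genes, coded minus uncoded correlated between the strains at 0.38 (0.38 without the members); genes are not independent replicates and the labels name no pairing, so the replicate block was not the main model. Among the members the block changed the calls of sib2 in both strains and of str2 in mmi1-ts3 (0.54, adjusted p = 0.037) and no other member; php2, cuf2, sod1, sdh2 and shu1 are given in the text.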
